A study of Mus musculus with 35 samples.

Results

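The Hox cluster genes were followed in lumbar motoneurons taken from 35 mice. The members are the probe sets that name exactly 1 gene, and whose gene is Hoxa, Hoxb, Hoxc or Hoxd with a number from 1 to 13. This gave 48 of 45101 probe sets, and 33 of 18194 genes that a single-gene probe set names. The genes fall into 4 clusters, on chromosomes 6 (Hoxa), 11 (Hoxb), 15 (Hoxc) and 2 (Hoxd). Other genes and shared probe sets of these clusters are not members. Of these, Hoxb5os and a probe set shared by Hoxb7 and Hoxb8 are given below.

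The mice fell into 5 groups. Control animals (WT) were C57BL/6J mice of week 11 (n = 6) and week 15 (n = 7). SOD1 mice were hemizygous B6.Cg-Tg(SOD1-G93A)1Gur/J animals with a high copy number of mutant human SOD1, a model of amyotrophic lateral sclerosis, studied untreated at week 11 (n = 8) and after pump treatment at week 15. From week 11 to week 15 they received either vehicle (n = 7) or the growth factor G-CSF as filgrastim (n = 7) from a minipump under the skin. The methods describe the transgenic mice as female littermates and the WT mice as littermates, and name pumps for SOD1 mice only. Each array held amplified RNA of 300 laser-dissected motoneurons of 1 mouse, with no pooling. Values are log2 intensities after GCRMA normalization. Array medians lay between 3.19 and 3.47, and 20th centiles between 2.31 and 2.57. Mice of different weeks were different cohorts, and SOD1 mice carried a pump only at week 15, so age, cohort and pump cannot be told apart. Between SOD1 and WT mice of week 15, genotype cannot be told apart from pump and vehicle. Fewer cells of a type and less RNA per cell cannot be told apart either. Of 12 motoneuron markers 11 were on the array, all 11 stood over the 20th centile on every array, and 9 over the median. Chat, 1 of these markers, was over the median on 12 arrays. Of 10 astrocyte markers 10 and 9 stood over these levels on every array, and of 10 oligodendrocyte markers 9 and 8. All 10 general neuron markers stood over both. Counts were lower for 12 interneuron (7 and 5), 11 microglia (8 and 4), 9 endothelial (7 and 4) and 10 fibroblast markers (5 and 3). From which cells the Hox signal came was not tested.

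Hox genes encode transcription factors with a homeodomain. Their order along each cluster matches the order in which their domains begin along the body axis. Those of low numbers begin in the hindbrain and neck, those of high numbers towards the tail. In the embryonic cord they give motoneurons their segmental identity, with the Hox10 paralogues Hoxa10, Hoxc10 and Hoxd10 acting at limb levels of the lumbar cord, Hoxc9 in the thoracic cord, and Hoxa5, Hoxc5, Hoxc6 and Hoxc8 in the neck and at forelimb levels. Hox proteins bind DNA together with cofactors of the Pbx and Meis families. Polycomb proteins keep Hox loci silent and trithorax proteins keep them active.

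RefSeq promoter windows were held for 19 of the 33 genes (21 windows of 300 bases, GRCm38.p6). The 250 bases before the start are shown for Hoxa7, which differed among the groups, and for Hoxd10, which had the widest spread between mice. Each sequence runs 5′ to 3′ on the strand of the gene. Capitals mark TTTATG, the form bound by Cdx proteins that set posterior Hox domains, and CCAAT, which stands in the Hoxd10 window as its reverse complement ATTGG.
Hoxa7, chr6:52218574-52218823 (minus strand): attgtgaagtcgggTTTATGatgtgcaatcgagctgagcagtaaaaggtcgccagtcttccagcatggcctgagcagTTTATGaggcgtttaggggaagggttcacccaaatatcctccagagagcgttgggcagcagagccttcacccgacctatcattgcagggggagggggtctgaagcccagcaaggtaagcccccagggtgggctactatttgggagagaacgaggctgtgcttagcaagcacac
Hoxd10, chr2:74691641-74691890 (plus strand): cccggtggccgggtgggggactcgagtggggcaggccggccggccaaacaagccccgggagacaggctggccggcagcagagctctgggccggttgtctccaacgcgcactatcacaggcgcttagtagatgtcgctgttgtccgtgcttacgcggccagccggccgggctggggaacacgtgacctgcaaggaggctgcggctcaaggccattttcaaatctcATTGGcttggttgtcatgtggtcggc
Hoxa7 held TTTATG at 2 places. It occurred on either strand in 3 of 21 Hox windows (14.3%) and in 11.9% of all 32851 windows. CCAAT stood in 12 Hox windows (57.1%), including that of Hoxd10, and in 37.4% of all. The Pbx-Hox composite form TGATNNAT stood in 3 (14.3%) and in 8.85% of all, and TATAAA in 2 (9.52%) and in 13.6% of all. The Hox windows held a median of 15 CG pairs, and all windows a median of 7. These are counts of letters in a window, not of bound sites. No window was held for Hoxb6, Hoxc5, Hoxb9 or Hoxc9.

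Most Hox genes with paralogue numbers 4 to 10 stood over the median of the array in every mouse, and no gene with a number from 11 to 13 did. Each gene was read at its brightest probe set and set against the other probe sets of the same array, as levels of different probe sets are not on 1 scale. For paralogues 4 to 10, 13 of 19 genes were over the array median on all 35 arrays. The others were Hoxd8 (34 arrays), Hoxc5 (31), Hoxd10 (28), Hoxb9 (12), and Hoxa4 and Hoxb7 (0 arrays each). For paralogues 1 to 3 it was 2 of 7 (Hoxa3 and Hoxb3). Paralogue 3 alone had 2 of 3, the same as paralogues 4 and 5, so the levels do not set a bound at 4. For paralogues 11 to 13 it was 0 of 7, although 2 of the 7 were over the 20th centile on every array. Together 15 of 33 genes were over the median on every array, against 9178 of 18194 genes in all (50.4%), so as a family the Hox genes were not brighter than other genes. By cluster the counts were 5 of 9 for Hoxa, 4 of 9 for Hoxb, 5 of 7 for Hoxc and 1 of 8 for Hoxd, where the gene was Hoxd9.

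**Figure D1:**
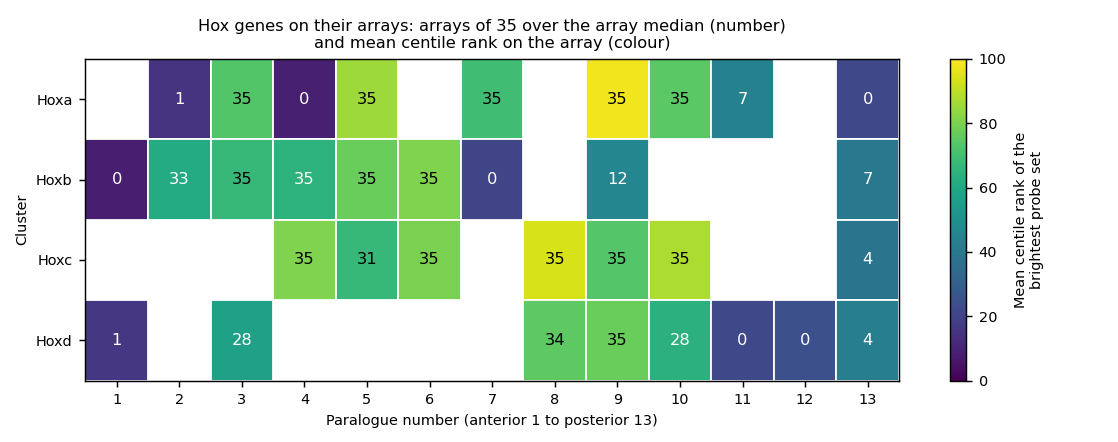
Hox genes by cluster (vertical axis) and paralogue number (horizontal axis), with colour giving the mean centile rank of the brightest probe set on its array and the number in each field giving the arrays, of 35, on which that probe set was over the array median. White fields hold no member gene. The brightest field is Hoxa9 at a rank of 97.7, and no field of paralogues 11 to 13 is over 43.6.

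The brightest of the middle genes by rank were Hoxa9 (mean centile rank 97.7), Hoxc8 (93.8), Hoxc10 (87.8) and Hoxa5 (85.5). A rank depends on how strongly a probe set binds, so it says only that the signal was far over the background of its array. Hoxb4, Hoxb5, Hoxb6, Hoxc4 and Hoxc6, genes with roles at neck and forelimb levels of the embryo, were over the median on all 35 arrays as well. Their ranks were 64.3, 77.0, 80.7, 80.7 and 80.0. All tissue was lumbar, so such a signal does not stand for another body level. Probe sets of a gene could disagree: Hoxa4 stayed below the median on all arrays with both of its probe sets (ranks 3.24 and 8.68), whereas Hoxa3 ranged from 14.7 to 73.0 over 4 probe sets. At the hindbrain end, Hoxb1, a gene of the hindbrain, ranked at 8.28 and Hoxd1 at 15.9. At the tail end, Hoxa13, Hoxd11 and Hoxd12 were never over the median (ranks 21.7, 21.7 and 24.5). Over single probe sets, 32 of 48 were over the 20th centile on every array, 21 over the median on every array and 8 over the median on none.

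Posterior paralogues were compared over the groups next. Hoxa9 (the brighter of 2 probe sets) read 10.05 ± 0.38 (SD, n = 6) in WT mice of week 11, 10.41 ± 0.31 (n = 8) in SOD1 mice of week 11, 10.23 ± 0.30 (n = 7) in WT mice of week 15, 9.98 ± 0.69 (n = 7) with vehicle and 10.06 ± 0.61 (n = 7) with G-CSF. The groups overlapped throughout. At week 15 the log2 difference of vehicle and WT was -0.25 (95% interval -0.76 to 0.27). Hoxc10, which gives limb-level motoneurons of the lumbar cord their identity, had group means of 7.47, 7.74, 7.15, 7.34 and 7.34 in the same order, and a week 15 difference of 0.20 (-0.28 to 0.67). Hoxc8 had means of 8.50, 8.71, 8.74, 8.74 and 8.86 and a difference of -0.00 (-0.46 to 0.46). For these 3 genes the intervals at week 15 excluded a change of 1 log2 unit in either direction.

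Hoxd10 showed the widest spread of all members. In SOD1 mice of week 11 it ran from 2.00 to 7.38 with a median of 6.15: 3 mice lay between 2.00 and 3.16 and 5 mice between 5.72 and 7.38, with none in between. In vehicle-treated mice 4 lay between 3.25 and 3.50 and 3 between 5.74 and 6.93. WT mice ran from 2.64 to 6.55 at week 11 (median 4.85) and from 4.05 to 6.07 at week 15 (median 4.55), and G-CSF-treated mice from 3.24 to 5.00 (median 4.19). Its SD within groups was 1.54, the position 13 from the largest among 31352 probe sets, which had a median of 0.457. The 33 tested Hox probe sets had a median of 0.427, so the family as a whole did not share the spread of Hoxd10. Hoxd8, of the same cluster, was wide as well, with SDs of 1.06 and 0.827 at its 2 probe sets. These stood at centiles 97.3 and 89.2 of the SDs of all tested probe sets. The brightest probe sets of Hoxc5 and Hoxa10 stood at 82.9 and 80.9. No difference of group means was called for Hoxd10, and the interval of vehicle against WT at week 15 reached from -1.79 to 1.39. Hoxa10 (the brighter of 2 probe sets) ran from 4.39 to 7.15 in SOD1 mice of week 11, with 5.98 ± 1.05 (SD, n = 8). Hoxd9 and Hoxa11 varied less, with SDs within groups of at most 0.61 and 0.67. The group means of Hoxa10 were 5.75, 5.98, 5.51, 5.10 and 5.14, and those of Hoxd9 were 5.83, 6.17, 6.02, 5.40 and 5.72, in the order used for Hoxa9. Hoxa11 stayed near the array medians in all groups, with means between 2.95 and 3.27. Hoxd11 was below the median on every array, with group means between 2.30 and 2.53.

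**Figure D2:**
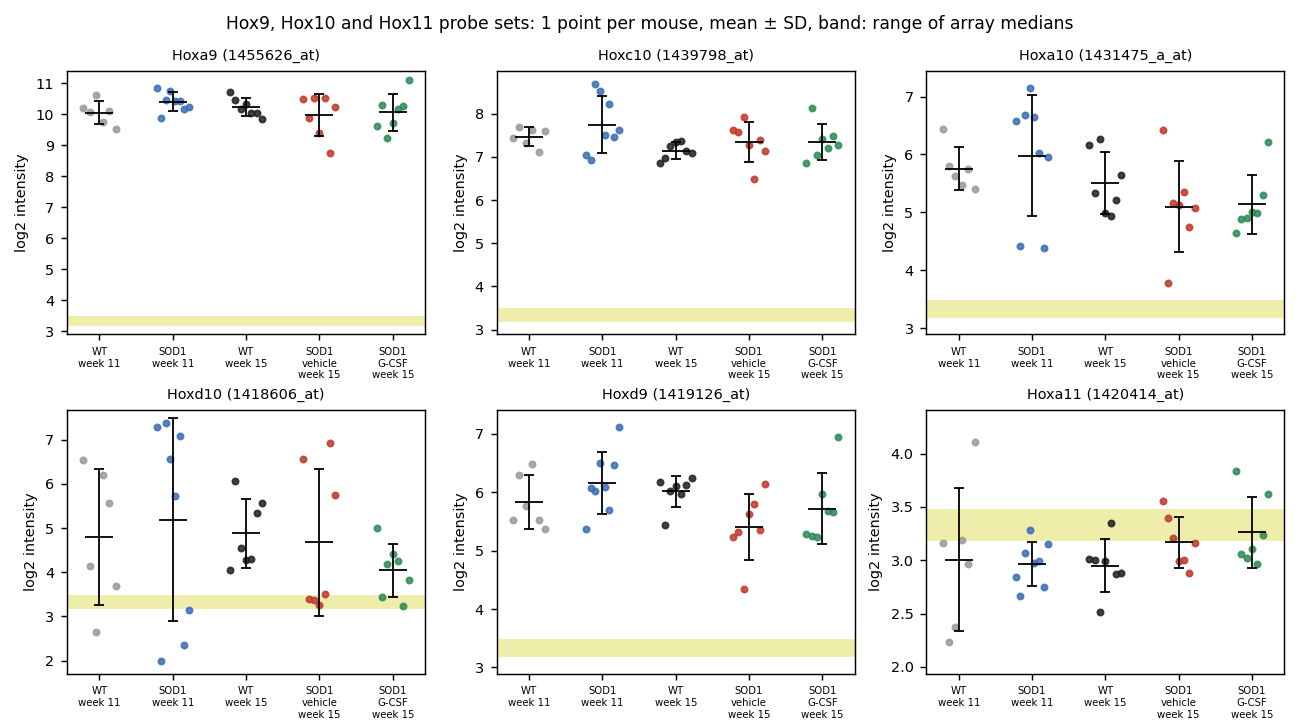
Log2 intensity (vertical axis) of 6 probe sets of Hox9, Hox10 and Hox11 paralogues in the 5 groups (horizontal axis), with 1 point per mouse, the mean as a bar, the SD as whiskers and the range of the 35 array medians as a band. Hoxa9 lies between 8.75 and 11.11 in every mouse, while Hoxd10 splits in the SOD1 mice of week 11 into 3 mice up to 3.16 and 5 mice from 5.72.

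Differences between groups were tested on the probe sets that passed the filter of the methods, an intensity over the 20th centile (2.40) on at least 4 arrays and an SD over all arrays at or over the 30th centile (0.241). Of 48 Hox probe sets 33 passed, from 26 genes. The SD condition alone stopped 12 and the intensity condition 3, and 7 genes had no tested probe set. In a fit without the filter none of these 15 was called in any contrast, with log2 differences between -0.24 and 0.38. A change was called in limma where the fold change was at least 1.5, the Benjamini-Hochberg adjusted p over all tested probe sets was under 0.1 and the raw p was under 0.05.

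At week 11, before motor symptoms, no Hox probe set was called changed in SOD1 mice. Of all probe sets tested 1.32% were called, 1.13% higher and 0.188% lower, and between 0.469% (without WT mouse 5) and 1.80% on leaving out 1 mouse. Differences ran from -0.68 (Hoxb6) to 0.94 (Hoxd8, the brighter of 2 probe sets), 15 upwards and 18 downwards, with a median of -0.01 against -0.01 over all probe sets. At an unadjusted p under 0.05 there were 4 of 33 (Hoxa5, Hoxa7, Hoxb6 and Hoxd8), and 11.0% of all probe sets. Tukey's comparison, which the methods name, also called 0 of 33, whereas the study lists Hoxb6 as lower at this week. For this probe set of Hoxd8, WT mouse 6 read 2.49 and the other WT mice of week 11 lay between 5.80 and 6.46. The array of that mouse also stood apart over all probe sets, with a median correlation of 0.899 with its group, and its part in the difference was not tested. For 27 of 33 probe sets the 95% interval excluded a change of 1 log2 unit or more in either direction, and for the others it did not.

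At week 15 Hoxb6 and Hoxc5 were lower in vehicle-treated SOD1 mice than in WT mice. These were 2 of 33 Hox probe sets (6.06%), both lower, where 5.91% of all probe sets were called, 1.72% higher and 4.2% lower, so the share among Hox genes was near that of all genes. The median difference was -0.09 over the Hox probe sets and 0.02 over all. In all, 22 of 33 were lower and 11 higher.

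Hoxb6 (1 probe set, cluster on chromosome 11) read between 6.55 and 7.00 in WT mice of week 15, with a median of 6.72. In vehicle-treated SOD1 mice it read between 4.96 and 6.22, with a median of 5.45. No vehicle-treated mouse reached the lowest WT mouse. The mean fell by 1.26 on the log2 scale (SE 0.23, 95% interval -1.72 to -0.80, limma adjusted p = 0.00142), or 2.39-fold. At week 11, WT mice lay between 6.63 and 7.67 and SOD1 mice between 5.36 and 6.97, with a difference of -0.68 that was not called (adjusted p = 0.186). G-CSF-treated mice lay between 5.40 and 6.96, with a median of 5.85, and overlapped both other groups of week 15. G-CSF against vehicle gave 0.48 (0.02 to 0.94, adjusted p = 0.574) and G-CSF against WT -0.78 (adjusted p = 0.108), and neither was called. The SOD1 effect of week 15 minus that of week 11 was -0.58 (-1.23 to 0.07, adjusted p = 0.334), so a larger effect at week 15 was not shown. The study lists this probe set as lower at both weeks, from the same mice, so its choice is not independent of these values. At week 11 the fold here was 0.625 with an unadjusted limma p of 0.0054, so listing and call differ at that week. Why they differ was not tested. Hoxb5os, an antisense gene of the same cluster, differed by -0.14 (adjusted p = 0.883) at week 15.

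Hoxc5 (brightest of 3 probe sets, cluster on chromosome 15), known from motoneurons of the neck that serve breathing, read between 4.88 and 6.06 in WT mice of week 15, with a median of 5.49. In vehicle-treated mice it ran from 3.00 to 5.03 with a median of 3.69: 6 of 7 lay below every WT mouse of that week, at 4.84 or less, and 1 within the WT range. The mean was 3.24-fold lower (log2 difference -1.70, SE 0.38, adjusted p = 0.00936), a call that was lost under Tukey's comparison (adjusted p = 0.124). G-CSF-treated mice ran from 3.11 to 5.81 with a median of 4.01. Against WT, G-CSF-treated mice were 2.53-fold lower (-1.34, SE 0.38, adjusted p = 0.099), the only Hox probe set called there (3.03% of 33, against 1.13% of all, 0.348% higher and 0.778% lower). That call lay close to the threshold and was lost on leaving out any of 24 of the 35 mice in turn. With the actin difference described below as a covariate the difference was as large (-1.39) but not called (adjusted p = 0.132), and Hoxb6 was called (-0.88, adjusted p = 0.098). Both comparisons use the same WT mice and are not independent. At week 11 the difference was -0.41 (adjusted p = 0.785).

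The other 2 probe sets of Hoxc5 did not follow. At the second brightest, WT mice of week 15 lay between 4.10 and 4.54 and vehicle-treated mice between 3.67 and 4.35, with a difference of -0.29 (-0.73 to 0.14, adjusted p = 0.466). At the dimmest, both groups lay near the 20th centiles, with a difference of 0.05. The lower level of Hoxc5 is therefore that of 1 probe set of 3, and which transcript each one reads is not given in the sources used here.

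**Figure D3:**
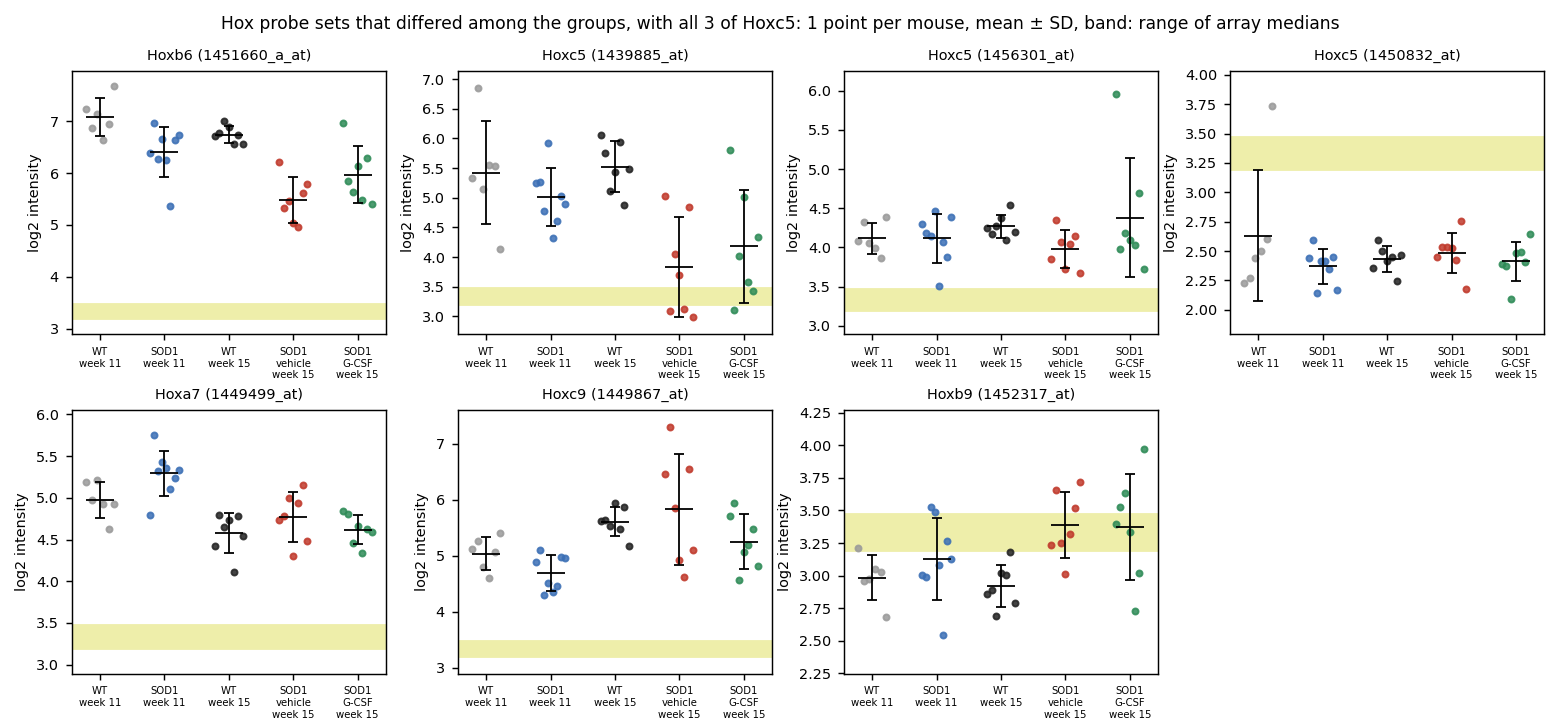
Log2 intensity (vertical axis) by group (horizontal axis) of the 5 Hox probe sets that differed among the 5 groups and of the other 2 probe sets of Hoxc5, with 1 point per mouse, the mean as a bar, the SD as whiskers and the range of the 35 array medians as a band. Hoxb6 lies at 6.55 or more in every WT mouse and at 6.22 or less in every vehicle-treated mouse, and the fall of Hoxc5, whose panels run from its brightest to its dimmest probe set, appears in the first of them.

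Other genes with roles at hindbrain, neck and forelimb levels of the embryo gave no call at week 15. Hoxa5, which acts in neck motoneurons that drive the diaphragm, ran from 6.66 to 7.55 in WT mice (median 7.18) and from 5.75 to 7.53 with vehicle (median 7.21) at its brighter probe set, with a difference of -0.19 (-0.65 to 0.27). Hoxc4 ran from 6.07 to 6.73 in WT mice (median 6.29) and from 5.43 to 7.34 with vehicle (median 6.03), with a difference of -0.17 (-0.61 to 0.28). Hoxb3 and Hoxb4 differed by -0.05 (-0.36 to 0.26) and -0.12 (-0.59 to 0.36), each at the brighter of 2 probe sets. Their dimmer probe sets, which did not pass the filter, gave 0.147 (-0.108 to 0.402) and 0.184 (-0.0297 to 0.398) in the fit without it. In all 4 genes the WT and vehicle ranges overlapped. Hoxb5, the neighbour of Hoxb6 in its cluster, ran from 5.56 to 6.54 in WT mice (median 5.95) and from 4.78 to 6.51 with vehicle (median 5.17), a difference of -0.63 with an interval of -1.20 to -0.06 (adjusted p = 0.206). Hoxc6, a gene of forelimb motoneurons and the neighbour of Hoxc5, did not enter the test, as all 3 of its probe sets varied too little over the arrays. At the brightest, Hoxc6 ran from 5.72 to 6.33 in WT mice of week 15 and from 5.92 to 6.59 with vehicle, so the ranges overlapped.

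Among the next largest differences of week 15, Hoxb5 (-0.63), Hoxd9 (-0.61), Hoxb9 (0.47) and Hoxc13 (0.32) had an unadjusted p under 0.05 and were not called. For Hoxb9 the adjusted p was 0.0884, and the change of 1.38-fold was under the size asked for. Hoxb9 read between 2.69 and 3.18 in WT mice, below their array medians on all 7 arrays, and between 3.01 and 3.72 in vehicle-treated mice. Counted without the size condition, Hoxb9 would be the third member called. Leaving out vehicle-treated mouse 3 added Hoxb5 to the calls. A probe set shared by Hoxb7 and Hoxb8, and so no member, was called higher, with a difference of 0.64 (adjusted p = 0.0982).

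Other signals moved with the same contrast. Of 9 tested microglia markers 5 were higher in vehicle-treated mice (Csf1r, Tyrobp, C1qb, C1qc and Ctss). The log2 of the summed signal of all 11 on the array ran from 7.78 to 8.54 in WT mice and from 8.47 to 10.79 with vehicle. The microglia genes Aif1 and Itgam were below the 20th centile on most arrays. Of 11 motoneuron markers Nefm and Chodl were lower. The log2 of the sum over all 11 ran from 14.58 to 14.85 in WT mice and from 13.81 to 14.44 with vehicle. Of 9 interneuron markers none was called, and of 10 astrocyte and 10 oligodendrocyte markers Gfap was higher (3.70, at the brightest of 3 probe sets) and Olig1 lower. Of 10 general neuron markers Rbfox3 (-0.76) and Map2 (-0.61) were lower and Gap43, a gene of growing axons, higher (3.16). The log2 of the sum over all 10 ran from 13.34 to 13.55 in WT mice and from 12.45 to 13.31 with vehicle. Of 8 endothelial markers Slc2a1 was higher (0.80). Their part in the Hox differences was not tested. The difference between the 3′ and 5′ actin probe sets, a sign of RNA quality, was 6.53 ± 0.12 (SD, n = 7) in WT and 6.44 ± 0.32 (n = 7) in vehicle-treated mice. With it as a covariate both Hox calls stood. The 18S control signal was 11.78 ± 0.37 (n = 7) and 10.97 ± 0.81 (n = 7), and the median correlation of an array with its group ran from 0.950 to 0.966 in WT and from 0.886 to 0.917 in vehicle-treated mice. The part of these was not tested. Without 3 arrays picked in an earlier reading of these data (WT mouse 6 of week 11 and vehicle-treated mice 3 and 5) both calls stood as well. G-CSF-treated mouse 3, with a correlation of 0.894, was not among them.

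**Figure D4:**
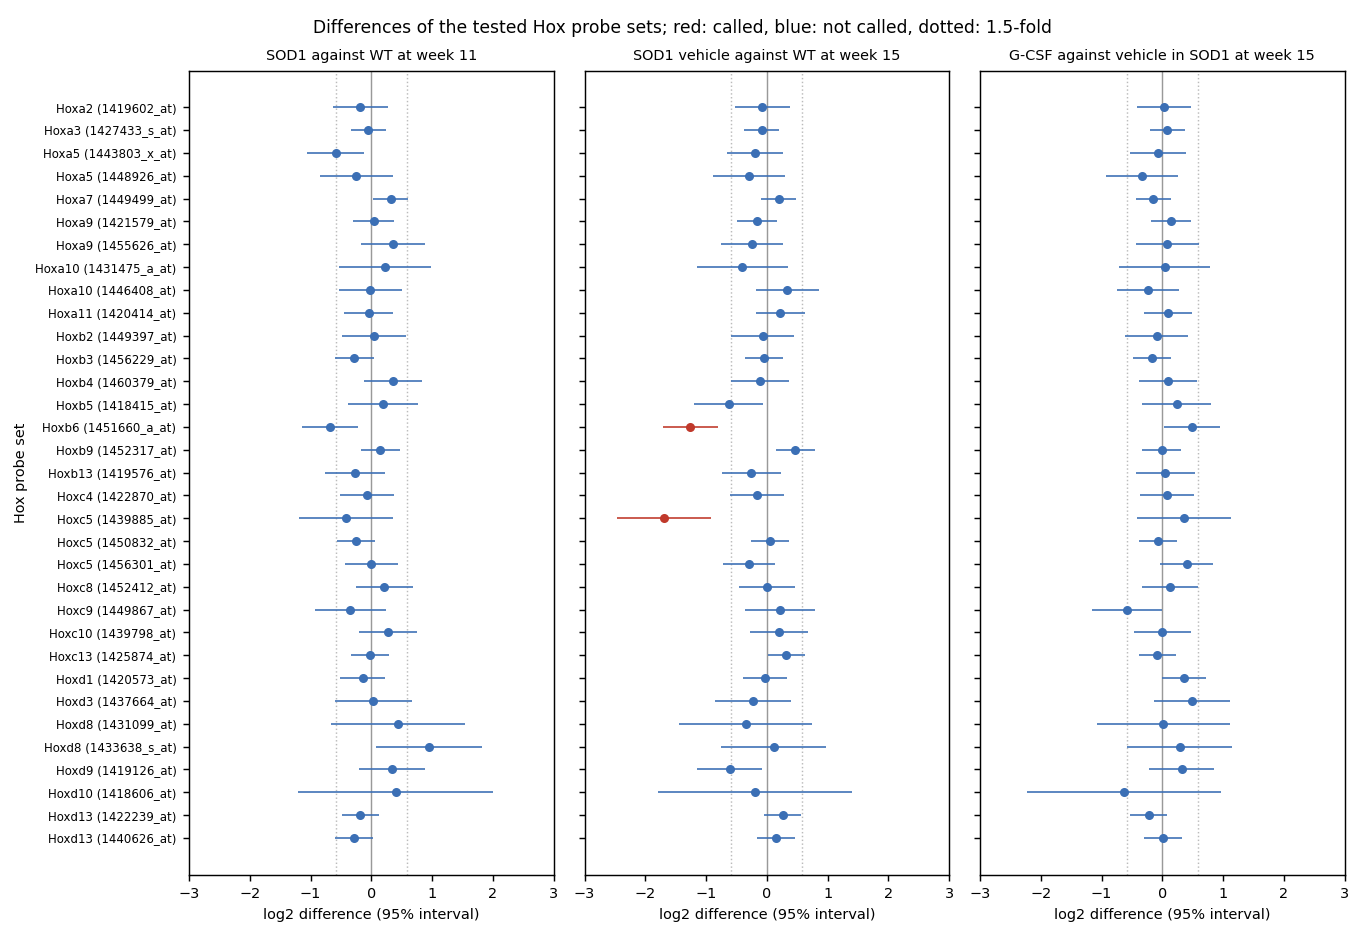
Log2 differences with 95% intervals (horizontal axis) of the 33 tested Hox probe sets (vertical axis) for SOD1 against WT at week 11, vehicle-treated SOD1 against WT at week 15 and G-CSF against vehicle at week 15. Red points were called and blue points not, dotted lines mark a change of 1.5-fold; the called points are Hoxb6 at -1.26 and Hoxc5 at -1.70, both at week 15, and the interval of Hoxd10 is the widest in each panel.

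G-CSF treatment changed no Hox probe set against vehicle by this test, where 0.0383% of all probe sets were called, 0.0128% higher and 0.0255% lower. Differences ran from -0.63 (Hoxd10) to 0.48 (Hoxb6), 20 upwards and 13 downwards, and 2 of 33 had an unadjusted p under 0.05 (Hoxb6 and Hoxc9) against 8.30% of all probe sets. Tukey's comparison called 0 as well. For 27 of 33 the 95% interval lay within 1 log2 unit of no change. Vehicle-treated Hoxc9 ran from 4.62 to 7.30 and G-CSF-treated from 4.56 to 5.94, with a difference of -0.58 (-1.15 to -0.00, adjusted p = 0.599). The SOD1 effect did not differ between the weeks by a called amount for any Hox probe set (2.93% of all were called, 0.778% higher and 2.15% lower), and 4 of 33 had an unadjusted p under 0.05 (Hoxb5, Hoxc5, Hoxd9 and Hoxd13) against 18.1% of all probe sets.

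Age and cohort left the Hox genes of WT mice uncalled, where 5.56% of all probe sets were called (3.29% higher, 2.26% lower), with differences from -0.51 to 0.57 and 1 of 33 at an unadjusted p under 0.05 (Hoxa7) against 17.4% of all probe sets. Tukey's comparison called 0 there too. In SOD1 mice, vehicle-treated mice of week 15 were set against untreated mice of week 11, a comparison added after the data were seen. There 9 of 33 Hox probe sets were called (27.3%), 1 higher and 8 lower, against 25.6% of all probe sets, 8.69% higher and 16.9% lower. The genes were spread over the 4 clusters. Hoxa10 (-0.88), Hoxb5 (-0.79), Hoxb6 (-0.92), Hoxc5 (-1.18), Hoxd3 (-0.72), Hoxd9 (-0.76) and both probe sets of Hoxd8 (-1.30 and -1.09) were lower. For Hoxa10 and Hoxc5 this held at the brightest probe set only. The dimmer probe set of Hoxa10 gave 0.46 and the other 2 of Hoxc5 gave -0.14 and 0.11, and none of these was called. Hoxc9, a gene of the thoracic cord, was 2.20-fold higher (1.13, SE 0.28, adjusted p = 0.00243). The groups overlapped for all 9. Hoxc9 ran from 4.30 to 5.10 in the younger mice and from 4.62 to 7.30 in the older, and Hoxd9 from 5.38 to 7.11 and from 4.34 to 6.14. Hoxb3 (the brighter of 2 probe sets), whose change was too small to be called, did not overlap, at 4.13 to 4.43 in the younger and 4.56 to 4.84 in the older mice. Its dimmer probe set overlapped, at 3.890 to 4.657 and 4.154 to 4.855. How many of all probe sets did not overlap was not counted. Age, cohort and pump cannot be told apart here, and the actin difference moved from 5.66 ± 0.24 (SD, n = 8) to 6.44 ± 0.32 (n = 7). With the actin difference as a covariate Hoxc9 was still called (1.12), as were 16.8% of all probe sets. The other 8 were not, although Hoxa10 (-0.85), Hoxc5 (-1.05), Hoxd3 (-0.91) and Hoxd8 (-1.68 and -1.23) differed by about as much or more, while Hoxb6 (-0.64), Hoxd9 (-0.38) and Hoxb5 (-0.09) differed by less. In the same contrast 7 of 11 motoneuron markers were lower, among them Slc18a3 (-1.92), Chodl (-1.42) and Prph (-1.13), and Slc5a7 was higher (1.53). Of 10 general neuron and 9 interneuron markers 4 each were lower. Of 10 astrocyte markers 3 were higher (Gfap, by 1.77, Slc1a3 and Gja1) and S100b was lower (-0.82). Of 9 microglia markers 2 were higher, Tyrobp (2.00) and C1qb (1.17). Of 10 oligodendrocyte markers Mbp and Cnp were higher and Ugt8a and Olig1 lower, and of 8 endothelial markers Slc2a1 was higher and Abcb1a lower. Their part in the Hox differences was not tested.

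Over all 5 groups together, 5 of 33 Hox probe sets differed (15.2%) by limma's F test at an adjusted p under 0.1, where 37.0% of all probe sets did. They were Hoxb6 (F = 14.8, adjusted p = 2.49e-05), Hoxa7 (F = 9.08, adjusted p = 0.000699), Hoxc5 (F = 7.75, adjusted p = 0.00178), Hoxc9 (F = 5.30, adjusted p = 0.0121) and Hoxb9 (F = 3.65, adjusted p = 0.0506). Hoxa7, whose promoter window is shown above, had its higher medians at week 11. They were 4.95 in WT and 5.33 in SOD1 mice of week 11, and 4.66 in WT, 4.78 in vehicle-treated and 4.63 in G-CSF-treated mice of week 15. The ranges overlapped, from 4.63 to 5.75 at week 11 and from 4.12 to 5.15 at week 15. With the actin covariate its F fell to 3.37 (adjusted p = 0.0994), at the edge of the threshold. Its largest difference was -0.52 in SOD1 mice between the weeks (adjusted p = 0.00509), 1.44-fold and so under the size asked for. Hoxc9 had medians of 5.08, 4.70, 5.62, 5.84 and 5.20 in the order of the groups, and its F test was lost with the actin covariate (adjusted p = 0.257). Hoxb9 was lost under quantile normalization (adjusted p = 0.138) and with array weights (adjusted p = 0.154). Without WT mouse 6 of week 11 the F test called 8 Hox probe sets in place of 5.

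Partners and regulators of Hox genes were read in the same test. In the contrasts of genotype and treatment at most 1 gene of a list passed it, against the shares of all probe sets given above. Of 7 tested cofactors, 6 of the 8 on the array being over the median on every array, Meis1 was lower at week 15 (-0.94, adjusted p = 0.0922), while another probe set of Meis1 gave 0.98 (adjusted p = 0.256). None of 9 tested genes upstream of Hox domains was called in the contrasts of genotype and treatment. The array held 18 such genes, Cdx and retinoic acid receptor genes among them, and the others did not pass the filter. Cdx1, Cdx2 and Cdx4 were dim, over the median on 0, 4 and 0 arrays, so the absence of a call is not a result about Cdx genes. Of 25 polycomb genes Suz12, a subunit of the complex that methylates histone H3 at silent loci, was lower at week 15 (-1.09, adjusted p = 0.0538), as at 1 other of its 5 probe sets. Of 14 trithorax genes Ash2l, a subunit of histone methyltransferases, was higher at week 11 (1.22, adjusted p = 0.0787) and Psip1 lower at week 15 (-1.17, adjusted p = 0.0647). Of 17 motoneuron column and pool factors Lhx4, a factor of early motoneuron columns, was lower at week 15 with vehicle (-1.03, adjusted p = 0.0943) and with G-CSF (-1.32, adjusted p = 0.0806). Pcgf3, a polycomb gene, was lower in G-CSF-treated than in WT mice (-0.81, adjusted p = 0.0295). The SOD1 effect of week 15 minus that of week 11 was called for Cbx6, a polycomb gene (-0.94, adjusted p = 0.0572), and for Mnx1, which sets motoneuron fate (-1.33, adjusted p = 0.0793). Cbx6 was also higher in WT mice of week 15 than of week 11 (0.90, adjusted p = 0.00205). G-CSF against vehicle gave no call in these 5 lists. More were called between the weeks in SOD1 mice, where 25.6% of all probe sets were: Meis1 (-0.74) and Pknox1 (0.73) of 7 cofactors, 0 of 9 upstream genes, 5 of 25 polycomb genes (Jarid2 and Phc2 higher, Eed, Rbbp7 and Rnf2 lower), 4 of 14 trithorax genes (Kmt2a and Kdm6b higher, Ash2l and Psip1 lower) and 4 of 17 pool factors (Foxp1, by 1.61, and Runx1 higher, Mnx1 and Esrrg lower). Each gene was read at its brightest probe set, and the medians at week 15 were 0.14, -0.06, 0.02, -0.08 and -0.04 for the 5 lists against 0.02 over all probe sets. Of 21 listed homeobox genes outside the clusters, such as Dlx and Otx genes, 1 was over the median on every array. Others, such as Isl1, Mnx1 and Meis2 of the lists above, were over it on all 35.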

How the data were processed

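Per the labels and methods, the authors dissected 300 lumbar motoneurons per mouse by laser, amplified the RNA with T7 polymerase, hybridized 1 Affymetrix mouse genome array per mouse and normalized the arrays by GCRMA with the Expression Console software, for which no version is given in the sources used. The authors deposited log2 intensities for 45101 probe sets (64 controls) on 35 arrays, unfiltered. Low intensities are pulled together by GCRMA, which makes fold changes of dim probe sets hard to size. For arrays, their number limits the precision.

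Probe sets were named through the platform annotation, 34958 with 1 gene, 932 with several and 9211 with none. limma 3.58.1 (R 4.3.3) was fitted over 5 groups with the filter of the methods (31352 probe sets). limma is the moderated form of the ANOVA of the methods, whose Tukey comparison was an alternative. The fit was first tested on simulated data. Tables and figures were made in Python 3.11.15 with pandas 2.3.3 and matplotlib 3.10.9.

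Members, gene lists and tests were chosen with earlier results of these data known. Named are members called in any contrast or by the F test, other probe sets of their genes, Hox9 to Hox11, and called genes of the lists; other members are named as examples of levels or of unadjusted p-values, chosen after their values were seen. Mice share numbers across groups. The deviations of 66 same-numbered pairs correlated between -0.21 and 0.14, with 1 over 0.1. These values gave no sign of pairing but cannot exclude it, and the labels do not name any. Alternatives were another normalization, filters, thresholds, the contrast's groups alone, array weights, an intensity trend, a floor, an actin covariate, a replicate block and leaving out arrays.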

Additional observations from a re-analysis of the deposited data

Results flagged for a closer look

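In 9 of 100 groups of values examined (20 probe sets of 15 genes in 5 groups), the highest or lowest mouse lay far from the rest of its group by Dixon's criterion, where chance gives about 1 in 20, or 5. No explanation was tested.

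Hoxb6 read 5.361 in SOD1 mouse 6 of week 11, and the other SOD1 mice of that week lay between 6.249 and 6.965. Hoxd8 (brighter probe set) read 2.493 in WT mouse 6 of week 11, below the range of 5.800 to 6.462 of the others, and Hoxc5 (dimmest probe set) read 3.736 in the same mouse, over 2.228 to 2.605. Hoxa10 (brighter probe set) read 6.216 and Hoxd9 6.949 in G-CSF-treated mouse 7, over 4.646 to 5.302 and 5.237 to 5.974 in the others. Hoxd9 read 5.438 in WT mouse 2 of week 15, below 5.979 to 6.245. Hoxa10 (dimmer probe set) read 5.318 in vehicle-treated mouse 5, over 2.533 to 3.206, and 3.548 in WT mouse 1 of week 15, over 2.603 to 2.824. Hoxd3 read 4.452 in WT mouse 5 of week 15, over 3.269 to 3.672. Over all probe sets, WT mouse 6 (week 11) and vehicle-treated mouse 5 had median correlations of 0.899 and 0.886 with their groups.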

How the results depend on the processing

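Under 13 alternatives and leaving out each of 35 mice in turn, the call of Hoxb6 at week 15 stood (-1.38 to -1.17 on leaving out mice), and no value recomputed changed its direction (those of the called members, and of Hoxb6 and Hoxc5 in the other contrasts). The call of Hoxc5 at week 15 was lost under the ANOVA with Tukey's comparison (adjusted p = 0.124), which left 1 Hox call in place of 2 and 0.848% of all probe sets in place of 5.91%. For G-CSF-treated mice against WT the count of 1 fell to 0 under quantile normalization, with no filter, with the intensity filter only, at an adjusted p under 0.05, under Tukey's comparison and with the contrast's groups alone, and rose to 2 with array weights and without the 3 arrays picked earlier (2.61% and 2.92% of all probe sets). WT mice of week 15 against week 11 gave 2 calls with array weights and 1 without these 3 arrays (12.2% and 7.99% of all). SOD1 mice of week 15 against week 11 gave 5 under quantile normalization, 2 under Tukey's comparison and 1 with the actin covariate, in place of 9, with 21.8%, 13.7% and 16.8% of all probe sets in place of 25.6%. The F test gave 9 with array weights and 8 without the 3 arrays, in place of 5 (46.2% and 40.8% of all in place of 37.0%). The cause was not tested. On leaving out 1 mouse, the counts ran from 5 to 8 for the F test, from 0 to 2 for G-CSF against WT, from 2 to 3 for vehicle against WT and from 7 to 10 for SOD1 mice between the weeks, and were 0 to 0 in the other contrasts. The F count of 8 came without WT mouse 6 of week 11. For G-CSF against WT the count moved in 26 of 35 fits.

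The replicate block, for mice that share a number, gave 3 calls for vehicle against WT (adding Hoxd9) and 1 for G-CSF against WT. It gave 9 for SOD1 mice between the weeks, 7 for the F test and 0 otherwise. Over the 30th centile of every array stood 26 probe sets, and 32 over the 20th. Tukey's comparison was not run for the difference of the SOD1 effects or the F test. The floor of dim signals limits what can be said of paralogues 11 to 13, Hoxa4 and Hoxb1.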
